A study of Mus musculus with 9 samples.

Results

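Aminoacyl-tRNA synthetases attach each amino acid to its tRNA, the step that supplies charged tRNA to the ribosome. Mammalian cells keep nuclear genes for a cytosolic set and for a separate mitochondrial set, which serves the ribosomes inside mitochondria. Several cytosolic enzymes sit in a multi-synthetase complex held together by scaffold proteins, and many cytosolic synthetase genes are known targets of ATF4, the transcription factor of the integrated stress response. Here 38 genes were followed, chosen by gene name from a table of 29756 entries: 20 genes of cytosolic synthetases, the scaffold genes Aimp1 and Aimp2, and 16 genes of mitochondrial synthetases, whose names end in 2. Aimp2 also ends in 2 but is a scaffold of the cytosolic complex, so it was kept apart from the mitochondrial enzymes. No FPKM threshold entered the choice. The family was picked with earlier results of these comparisons known, so its calls are a description and not independent evidence. All 38 genes had 1 entry each, and all 38 reached 1 FPKM in 3 or more of the 9 libraries, the minimum set for testing.

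The cells were HT22, an immortalised mouse hippocampal line grown in culture, with 3 libraries each labelled as control group C, experimental group A and intervention group B. The series title names hemin, an oxidised heme, and a bioactive micelle called PPP8, but the labels of the samples do not say which group received which agent, at what dose or for how long. The labels give no separate cultures for the replicates, so p-values measure the spread between these libraries, which may be technical. FPKM, the deposited unit, scales fragments to gene length and library size, so levels of different genes can be set side by side.

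Summed FPKM lay between 316912 and 339943 per library, and the number of reads behind it is unknown. Across the 11974 tested entries, which are not independent replicates, libraries of 1 group correlated at 0.990 to 0.994 and control with experimental libraries at 0.916 to 0.930. Of the neuronal markers, Stmn1 averaged 113 FPKM and Tubb3 7.12 in controls, while Rbfox3, Map2 and Dcx, which define neurons, averaged 0.147 or below in every group. The 11 neuronal markers summed to 124 to 130.3 FPKM in controls, 87.7 to 89.9 in experimental and 97.4 to 109 in intervention libraries. Most of each sum was Stmn1, which averaged 113, 76.3 and 92.8 FPKM in these groups. Stmn1 and Syn1 were called lower in both against control. Tubb3 was higher in experimental libraries, at 8.32 to 8.46 FPKM against 5.69 to 8.12 in controls. It was not called against control in either group (limma adjusted p = 0.0995 and 0.806). The summed FPKM of 6 astrocyte markers was 5.79 to 7.04 in controls and 2.32 to 3.94 in the other 6 libraries. Most of it was Slc1a3, which averaged 5.27 FPKM in controls, 2.1 in experimental and 2.43 in intervention libraries. Gfap, Aqp4, Slc1a2 and S100b overlapped between groups, while Aldh1l1, at 0.37 FPKM or below, was lower in both against control. The summed FPKM of 6 microglia and blood markers was 10.6 to 12.1 in controls and 1.09 to 2.99 in the other groups, most of it Tmem119. Ptprc was listed at 0.01 or below in all 9 libraries, controls included. Malat1 and Neat1, nuclear RNAs whose share can shift with RNA quality, together summed to 115 to 202 FPKM in controls and 75.3 to 106 in the other 6 libraries. The part of any of these in the results below was not tested.

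In control cells the cytosolic genes were far more abundant than the mitochondrial ones. The 20 cytosolic genes summed to 736, 754 and 746 FPKM in the 3 control libraries, and the 16 mitochondrial genes to 67.3, 67.7 and 66.9. Gars, which charges glycine tRNA in both compartments from 1 gene, led the cytosolic set at 94.2 ± 3.74 FPKM (SD, n = 3). Eprs, a single protein that charges glutamate and proline tRNA, was lowest of the 20 at 12.6 ± 0.232. Among mitochondrial genes the order ran from Iars2, for isoleucine, at 11.8 ± 0.206 down to Ears2, for glutamate, at 1.12 ± 0.0451. Many neighbours within these orders overlapped in their libraries, as the plot of FPKM by library shows.

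**Figure D1:**
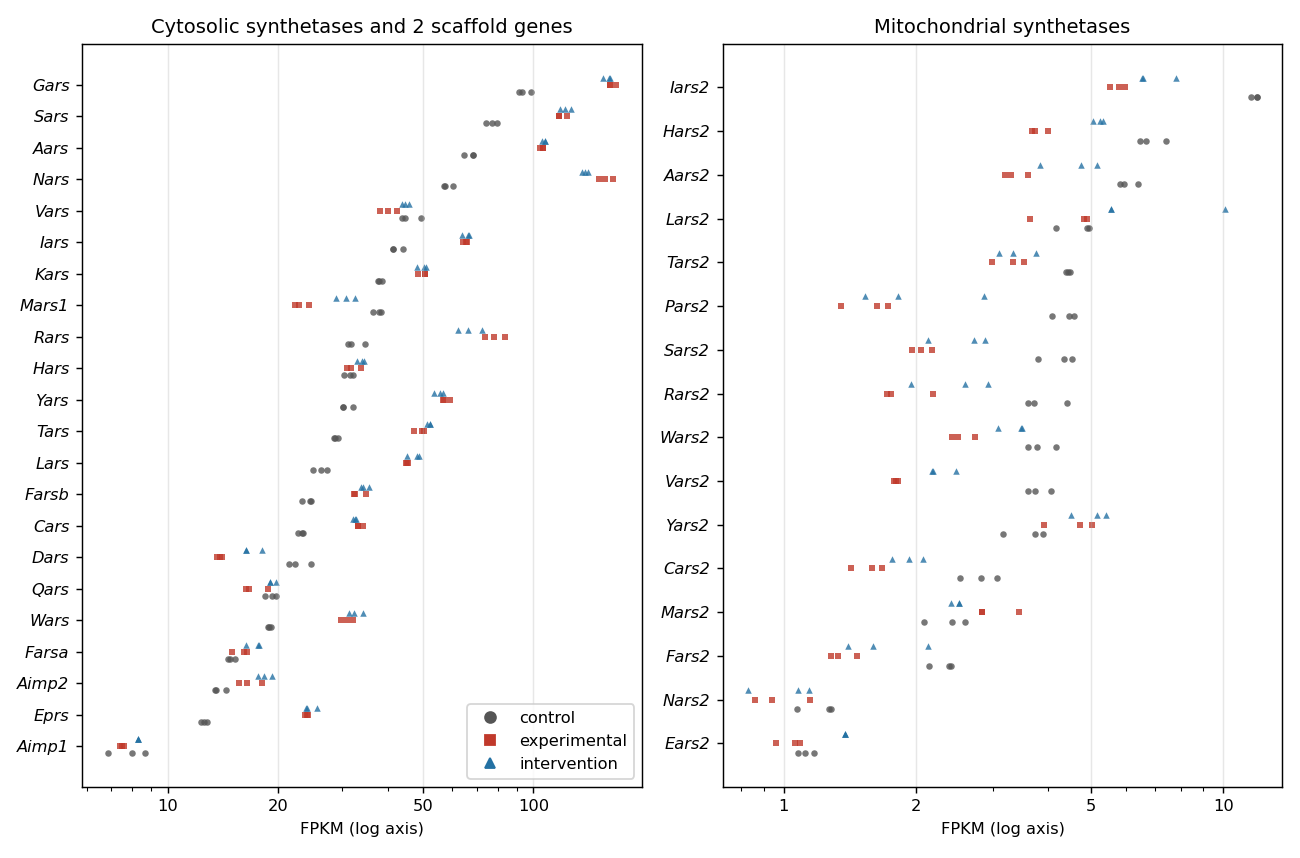
FPKM (log axis) of each gene in the 9 libraries, one point per library, with cytosolic and scaffold genes on the left and mitochondrial genes on the right, ordered by the control mean. Most cytosolic genes have their experimental and intervention points to the right of the control points, whereas most mitochondrial genes have them to the left, and Mars1 and Dars stand out on the left panel by lying below their controls.

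The first comparison set experimental against control libraries. The sets moved apart: 14 of 20 cytosolic synthetase genes rose and 4 fell, while 11 of 16 mitochondrial genes fell and 2 rose (limma, adjusted p under 0.05). Of all 11974 entries, 23.5% were called higher and 50.5% lower (74.0% in either direction), against 70% and 20% of the cytosolic genes and 12.5% and 68.8% of the mitochondrial genes. The median difference on the log2(FPKM + 1) scale was 0.62 for the cytosolic genes, -0.53 for the mitochondrial genes and -0.21 for all entries. Read against that general median, the cytosolic set stood 0.83 higher and the mitochondrial set 0.32 lower. Adding 1 before taking logs shrinks differences at few FPKM, where most mitochondrial genes lie, so the sizes of these shifts are not directly comparable. After scaling to TPM the median was 0.56 for the cytosolic genes, -0.74 for the mitochondrial genes and -0.3 for all entries. Summed cytosolic FPKM was 1154 to 1159 in experimental libraries and summed mitochondrial FPKM 41.3 to 44.1, so the ratio of the sums went from 11.0 ± 0.115 to 26.9 ± 1.04. After median-ratio scaling, which brings the median of all entries to 0 and their calls to 4321 higher and 4399 lower, 16 cytosolic genes were higher and 2 lower, and 2 mitochondrial genes higher and 10 lower.

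**Figure D2:**
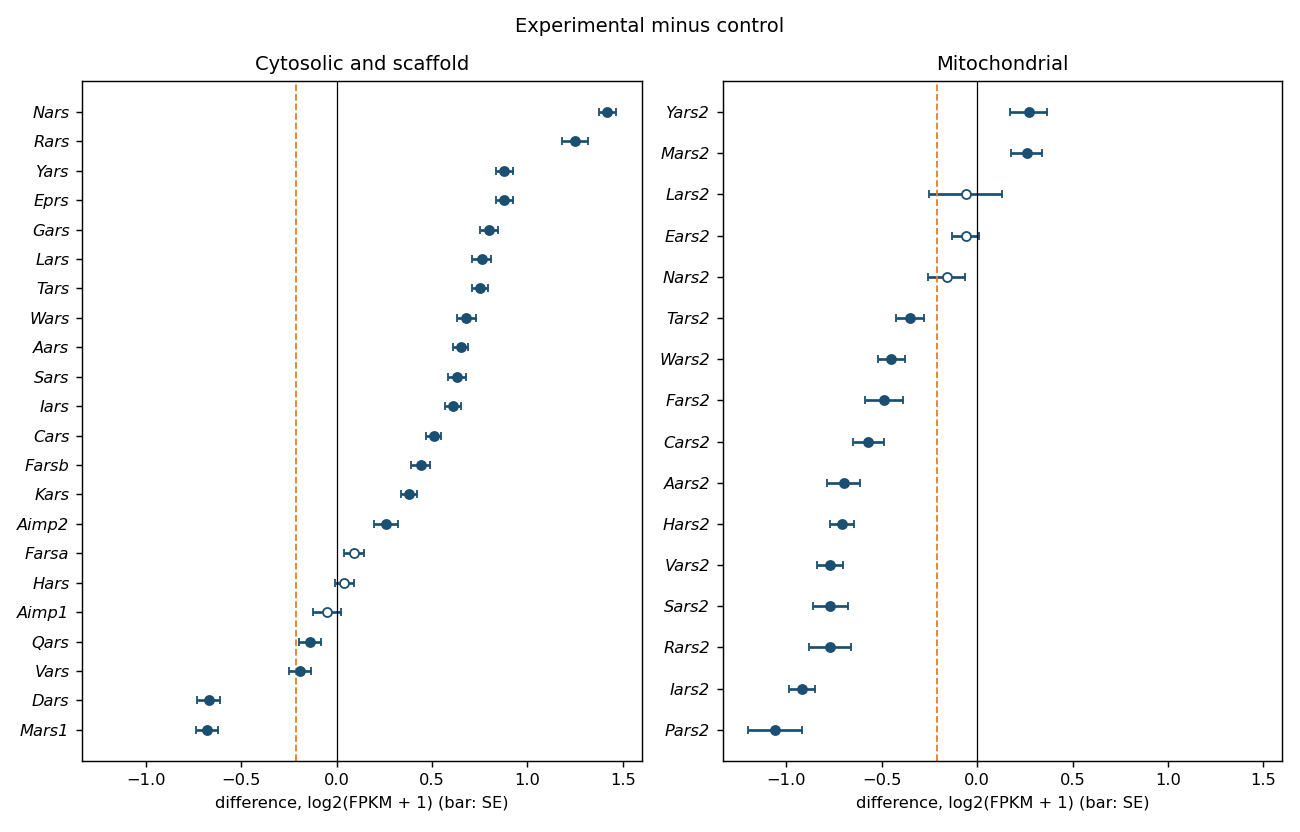
Difference between the experimental and control groups on the log2(FPKM + 1) scale for each gene, with its SE from limma. Filled points were called at an adjusted p under 0.05, open points were not, and the dashed line is the median of all tested entries at -0.21. Cytosolic genes reach from -0.68 to 1.42 and mitochondrial genes from -1.06 to 0.27.

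Nars, for asparagine, had the largest increase of the family. Its FPKM was 57.4, 60.4 and 56.9 in controls, 165, 151 and 157 in experimental libraries and 136, 141 and 138 in intervention libraries. No experimental or intervention library came near the control range, and the experimental mean was 2.70 times that of controls (log2 difference 1.42, SE 0.047, limma adjusted p = 2.16e-08). Rars, the arginine enzyme of the complex (chromosome 11, 35808381 to 35834506, minus strand of mm10), stood at 31.1, 34.5 and 31.8 FPKM in controls and at 83.6, 73.5 and 78.2 in experimental libraries. Its 3 intervention values of 62.3, 72.2 and 66.0 lay between those groups without touching either, and the experimental mean was 2.42 times the control mean (limma adjusted p = 2.22e-07).

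Eprs rose 1.91-fold from the lowest level of the cytosolic set: 12.8, 12.3 and 12.6 FPKM in controls became 24.1, 24.1 and 23.8 (limma adjusted p = 1.35e-07). Yars, for tyrosine, read 30.2, 30.2 and 32.1 FPKM in controls and 57.0, 56.7 and 59.1 in experimental libraries, a 1.87-fold rise (limma adjusted p = 1.43e-07). Both pairs of groups are widely separated, with SDs of 1.33 FPKM or less. Gars, already the most abundant, went from 91.1, 98.4 and 93.2 to 162, 162 and 169 FPKM (1.74-fold, limma adjusted p = 2.74e-07). Lars, for leucine, went from 25.0, 26.2 and 27.3 to 45.3, 45.0 and 44.8 FPKM (1.72-fold, limma adjusted p = 4.9e-07). The other 8 cytosolic genes that rose were Tars (threonine) 1.70-fold, Wars (tryptophan) 1.63-fold, Aars (alanine) 1.58-fold, Sars (serine) 1.56-fold, Iars (isoleucine) 1.54-fold, Cars (cysteine) 1.45-fold, Farsb (the beta subunit of the phenylalanine enzyme) 1.38-fold and Kars (lysine, in both compartments) 1.31-fold. Aars shares 1326 exonic bases with Exosc6 on the same strand, so its reads may be split with that gene. In all 14 the 3 experimental libraries lay above the 3 control libraries, which was so for 24.7% of all tested entries, while 51.5% had all experimental libraries below the controls.

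Promoter sequences from RefSeq on GRCm38.p6 were at hand for 29 of the 38 genes, each from 250 bases before to 50 after the transcript start the table uses. No entry was at hand for Cars, Hars, Lars, Nars, Rars, Vars, Wars, Hars2 and Pars2. Of these, Cars, Lars, Nars, Rars and Wars rose and could not be searched. The promoters of the 29 genes were searched on both strands for TGATGNAA, the letters of the C/EBP-ATF response element through which ATF4 acts. Of 13 cytosolic genes with a promoter, 5 held it: Yars, Gars, Tars, Aars and Iars, all among the genes that rose. Of 32851 promoters of the same length, 3.97% held it, and of the 14 mitochondrial genes 0 did, as did 0 of 2 scaffold genes. The promoters of Mars1, Dars and Qars, which fell, held no match in this window, nor did Eprs, Farsb, Kars and Sars, which rose, or Farsa. With C in place of N, TGATGCAA occurred in 4 of the 13 (all but Gars) and in 0.895% of all promoters. TGACNNNGC, the core of the antioxidant response element, was in 3 of 13 cytosolic genes, both scaffold genes, 3 of 14 mitochondrial genes and 12.4% of all promoters. A match is a run of letters, not a measured binding site. The 5 promoters with the match are printed 5′ to 3′ on the gene's strand with TGATGNAA or its reverse complement in capitals, beside Eprs, which had the largest rise among the genes with a promoter entry and no match.
Yars, chr4:129189653-129189952, plus strand: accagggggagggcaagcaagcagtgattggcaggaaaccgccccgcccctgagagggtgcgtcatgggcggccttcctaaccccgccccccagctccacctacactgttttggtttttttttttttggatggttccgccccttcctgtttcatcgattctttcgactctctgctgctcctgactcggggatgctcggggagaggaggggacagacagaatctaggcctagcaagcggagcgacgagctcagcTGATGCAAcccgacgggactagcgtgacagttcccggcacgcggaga
Gars, chr6:55037751-55038050, plus strand: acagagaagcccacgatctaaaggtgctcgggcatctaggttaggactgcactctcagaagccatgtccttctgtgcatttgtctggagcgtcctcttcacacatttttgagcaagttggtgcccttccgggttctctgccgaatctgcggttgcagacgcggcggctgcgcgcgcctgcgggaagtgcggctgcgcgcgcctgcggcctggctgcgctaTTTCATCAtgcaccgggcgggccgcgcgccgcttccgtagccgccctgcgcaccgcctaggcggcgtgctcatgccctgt
Tars, chr15:11399609-11399908, minus strand: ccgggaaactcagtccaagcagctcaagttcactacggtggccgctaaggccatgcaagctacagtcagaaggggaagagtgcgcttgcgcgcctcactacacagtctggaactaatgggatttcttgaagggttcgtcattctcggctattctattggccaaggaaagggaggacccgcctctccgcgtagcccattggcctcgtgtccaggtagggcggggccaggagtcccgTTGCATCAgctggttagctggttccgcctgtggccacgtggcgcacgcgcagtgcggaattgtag
Aars, chr8:111033592-111033891, plus strand: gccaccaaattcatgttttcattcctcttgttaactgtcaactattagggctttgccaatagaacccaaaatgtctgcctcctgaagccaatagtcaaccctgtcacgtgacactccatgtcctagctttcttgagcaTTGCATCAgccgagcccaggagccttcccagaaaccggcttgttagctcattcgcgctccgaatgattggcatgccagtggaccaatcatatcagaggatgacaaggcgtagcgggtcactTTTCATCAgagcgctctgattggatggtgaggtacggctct
Iars, chr13:49681880-49682179, plus strand: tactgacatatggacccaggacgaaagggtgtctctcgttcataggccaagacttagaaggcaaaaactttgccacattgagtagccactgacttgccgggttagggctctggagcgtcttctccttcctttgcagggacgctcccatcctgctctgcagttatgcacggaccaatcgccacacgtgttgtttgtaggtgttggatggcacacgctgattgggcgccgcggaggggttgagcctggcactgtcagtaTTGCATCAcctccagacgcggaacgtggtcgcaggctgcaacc
Eprs, chr1:185362794-185363093, plus strand: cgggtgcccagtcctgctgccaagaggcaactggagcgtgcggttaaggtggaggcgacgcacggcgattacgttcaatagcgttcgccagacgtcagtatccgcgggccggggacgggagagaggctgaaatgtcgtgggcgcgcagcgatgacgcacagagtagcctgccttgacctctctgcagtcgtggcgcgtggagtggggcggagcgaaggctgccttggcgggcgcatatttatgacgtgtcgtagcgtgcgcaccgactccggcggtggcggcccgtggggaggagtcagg
The match begins 3 bases past the first transcribed base in Yars and 7 past it in Iars, both inside the transcript. It begins 15 bases before that base in Tars and 30 before it in Gars. Aars holds a pair of matches, 112 bases before and 9 past the first transcribed base.

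Against the run of increases, 4 cytosolic genes fell. Mars1, the methionine enzyme that also charges the initiator tRNA (chromosome 10, 127296221 to 127311786, minus strand of mm10), had 36.5, 38.2 and 37.8 FPKM in controls and 22.8, 24.3 and 22.2 in experimental libraries. Dars, for aspartate (chromosome 1, 128363707 to 128417368, minus strand), went from 22.2, 24.6 and 21.5 to 14.1, 13.9 and 13.6 FPKM. In both the groups were apart by several FPKM, with falls of 1.62-fold (limma adjusted p = 2.32e-06) and 1.64-fold (limma adjusted p = 4.53e-06). Mars1 shares 68 exonic bases with Ddit3 on the opposite strand, and Ddit3 moved the other way, from 24.8 ± 2.06 to 98.2 ± 4.42 FPKM.

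The other 2 falls were small and lost their call in several settings. Vars, for valine, read 44.6, 43.7 and 49.3 FPKM in controls and 38.1, 42.5 and 40.0 in experimental libraries (ratio 0.877, limma adjusted p = 0.0152). After median-ratio scaling its difference turned to 0.05 (adjusted p = 0.405), and its call was also lost without experimental replicate 1 or control replicate 3. Qars, for glutamine, read 19.7, 19.3 and 18.4 against 16.4, 18.8 and 16.7 FPKM, so the groups overlapped (limma adjusted p = 0.0453). The Qars difference turned to 0.09 after median-ratio scaling (adjusted p = 0.141), and its call was lost in 13 of 19 alternative settings, with adjusted p from 0.00714 to 0.685. Those included quantile normalization, no filter, no trend, only the 2 groups compared, and the fits without experimental replicate 1 or 3, control replicate 1 or 2, or any 1 intervention library. Hars, for histidine, at 31.3 ± 0.972 against 32.1 ± 1.47 FPKM, and Farsa, at 14.9 ± 0.375 against 15.9 ± 0.784, were not called (limma adjusted p = 0.529 and 0.173). After median-ratio scaling both were called higher.

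Farsa and Farsb encode the alpha and beta subunits of 1 enzyme, yet only Farsb was called. The ratio of Farsb to Farsa FPKM was 1.52, 1.68 and 1.67 in controls, 2.16, 1.96 and 2.17 in experimental libraries and 1.93, 2.17 and 1.92 in intervention libraries. The control ratios lay below all 6 others. The ratio itself was not tested.

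The scaffold genes differed from each other. Aimp2 was 13.5, 14.4 and 13.6 FPKM in controls, 15.6, 16.5 and 18.1 in experimental and 19.3, 18.3 and 17.7 in intervention libraries, and rose 1.21-fold in the experimental group (limma adjusted p = 0.00348). Aimp1 was 7.99, 8.64 and 6.85 FPKM in controls, 7.42, 7.52 and 7.58 in experimental libraries and 8.27, 8.30 and 8.30 in intervention libraries. Its groups overlapped and it was not called (limma adjusted p = 0.553), though it was called higher after median-ratio scaling (difference 0.17). Eef1e1, the third scaffold of the complex, rose from 6.04 ± 0.693 to 10.2 ± 0.341 FPKM (limma adjusted p = 4.75e-05).

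The cytosolic genes were also counted by membership in the complex and by structural class, where 23.5% of all entries were higher and 50.5% lower. The 11 genes of the complex include the scaffold genes Aimp1, Aimp2 and Eef1e1, so they are not all synthetases. Of these 11 genes 7 rose, Aimp2 and Eef1e1 among them, with a median of 0.38 for the 11. The 3 that fell were Dars, Mars1 and Qars. Of 12 free-standing cytosolic genes 9 rose and 1, Vars, fell, with a median of 0.64. By structural class, 6 of 9 class I genes were higher and 3 lower, and 7 of 10 class II genes were higher and 1 lower, Eprs holding an enzyme of each class. No difference between these subsets was tested.

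The 11 mitochondrial synthetase genes that fell did so by 1.35 to 2.78 times on the FPKM scale. Pars2, for proline (chromosome 4, 106651069 to 106655282, plus strand of mm10), had 4.58, 4.45 and 4.08 FPKM in controls and 1.63, 1.73 and 1.35 in experimental libraries, a fall of 2.78-fold (limma adjusted p = 5.26e-05). Iars2 had 11.9, 11.6 and 11.9 FPKM in controls and 5.52, 5.98 and 5.80 in experimental libraries (2.05-fold, limma adjusted p = 1.11e-06), with 2034 exonic bases shared with Rab3gap2 on the opposite strand. Both fell without any overlap between groups. Vars2 read 3.72, 3.59 and 4.05 FPKM against 1.78, 1.80 and 1.82 (2.10-fold, limma adjusted p = 3.27e-06). Sars2, for serine, read 4.35, 4.53 and 3.78 against 2.17, 2.05 and 1.96 FPKM (2.05-fold, limma adjusted p = 3.05e-05). Pars2, Vars2 and Sars2 are near 2 FPKM in experimental libraries, where adding 1 before taking logs shrinks the difference. The other mitochondrial genes that fell were Rars2 2.07-fold, Aars2 1.81-fold, Hars2 1.80-fold, Cars2 1.79-fold, Fars2 1.70-fold, Wars2 1.51-fold and Tars2 1.35-fold. The Tars2 call was lost after median-ratio scaling, and Tars2, Fars2 and Wars2 lost theirs after quantile normalization.

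Yars2, for tyrosine, and Mars2, for methionine, were the mitochondrial synthetase genes that rose, each by less than 1.3 times. Yars2 was 3.72, 3.89 and 3.16 FPKM in controls, 3.90, 5.03 and 4.73 in experimental libraries and 5.40, 4.50 and 5.15 in intervention libraries (experimental against control ratio 1.27, limma adjusted p = 0.0264). Mars2 was 2.09, 2.42 and 2.59 FPKM in controls and 2.82, 2.82 and 3.42 in experimental libraries (ratio 1.28, limma adjusted p = 0.0169). Both stood just above their controls, and the Mars2 call was lost without experimental replicate 3 or control replicate 1. The Yars2 call was lost without experimental replicate 2, experimental replicate 3 or control replicate 3, without a filter and after scaling to TPM. Ears2, Nars2 and Lars2 were not called. Ears2 was 1.12, 1.08 and 1.17 FPKM in controls and 0.96, 1.09 and 1.06 in experimental libraries. Lars2, for leucine, was 4.89, 4.94 and 4.17 FPKM in controls, 3.64, 4.89 and 4.83 in experimental libraries and 10.1, 5.55 and 5.56 in intervention libraries, so intervention replicate 1 stood well apart from every other library.

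Setting each cytosolic gene beside the mitochondrial gene for the same amino acid gave 17 pairs. Within each library the ratio of cytosolic to mitochondrial FPKM was taken. In 16 pairs the 3 experimental ratios all lay above the 3 control ratios, and in 1 pair, Mars1 to Mars2, all lay below. As a fold of the control mean, the ratio of Eprs to Pars2 moved furthest, from 2.88 ± 0.178 to 15.4 ± 1.93. The Rars to Rars2 ratio came next by fold, from 8.38, 7.83 and 8.85 in controls to 38.3, 42.8 and 44.7 in experimental libraries, with 24.1, 24.8 and 33.9 in intervention libraries. The Mars1 to Mars2 ratio went from 17.5, 15.8 and 14.6 to 8.08, 8.62 and 6.50, and to 13, 11.5 and 12.8 in intervention libraries. Methionine was the 1 amino acid of these pairs where the cytosolic gene was called lower and the mitochondrial gene higher. Hars to Hars2, neighbours that share 195 exonic bases on opposite strands, went from 4.98, 4.74 and 4.09 to 8.41, 7.93 and 9.08. Pairs share genes (Eprs and Fars2 each enter 2 pairs), and no test was run on the ratios. The ratios use the same FPKM as the calls above, so the counts of pairs restate those calls in part. No share over other pairs of entries was taken. Of single tested entries, 24.7% had all experimental libraries above the controls and 51.5% had all below.

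**Figure D3:**
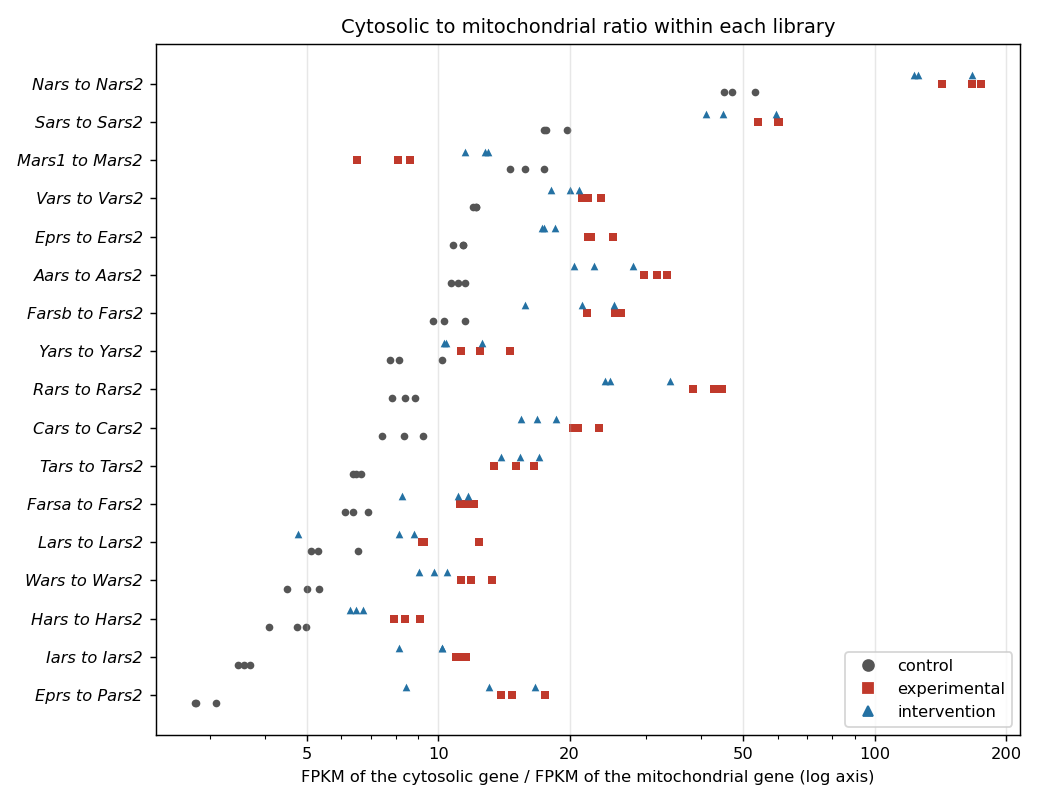
Ratio of cytosolic to mitochondrial FPKM (log axis) for 17 pairs of genes that serve the same amino acid, one point per library and ordered by the control mean. Experimental ratios lie right of control ratios in every pair but Mars1 to Mars2, and intervention ratios lie right of control ratios in 15 pairs. The share among other pairs of entries was not taken.

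The second comparison set intervention against experimental libraries and shares the experimental libraries with the first. Most synthetase genes were not called: of 20 cytosolic genes 2 rose and 2 fell, of 16 mitochondrial genes 5 rose, and neither scaffold gene was called. Of all tested entries 15.9% were called higher and 3.6% lower, against 10% and 10% of the cytosolic genes and 31.2% and 0% of the mitochondrial genes. After median-ratio scaling 645 entries were higher and 792 lower, with 1 cytosolic gene higher and 2 lower and 1 mitochondrial gene higher. Without adjustment, at p under 0.05, 10 mitochondrial genes were higher and 1 lower, and 4 cytosolic genes were higher and 2 lower. The median difference was 0.04 for cytosolic genes, 0.22 for mitochondrial genes and 0.10 for all entries, and the cytosolic median turned to -0.06 after median-ratio scaling.

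Mars1 and Dars, the cytosolic genes with the clear falls above, were the ones that rose here. Mars1 reached 32.5, 28.8 and 30.8 FPKM in intervention libraries, above all 3 experimental values of 22.2 to 24.3 and below all control values (1.33-fold, log2 difference 0.39, SE 0.056, limma adjusted p = 0.0151). Dars reached 18.1, 16.4 and 16.3 FPKM, again above the experimental libraries and below the controls (1.22-fold, limma adjusted p = 0.0219). Nars (0.879 of the experimental mean, limma adjusted p = 0.0286) and Rars (0.852, limma adjusted p = 0.0453) fell, the genes with the largest increases in the first comparison. Since both comparisons use the experimental libraries, the opposite signs are not independent of each other.

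The mitochondrial genes that rose were Hars2, from 3.68, 4.0 and 3.72 to 5.24, 5.32 and 5.06 FPKM (1.37-fold, limma adjusted p = 0.0151), Aars2, for alanine, Wars2, for tryptophan, Iars2 and Vars2. Aars2 went from 3.28, 3.59 and 3.19 to 5.15, 3.83 and 4.74 FPKM (1.36-fold, limma adjusted p = 0.0272). Wars2 went from 2.49, 2.41 and 2.73 to 3.47, 3.49 and 3.07 FPKM (1.31-fold, limma adjusted p = 0.0258). In each the groups did not overlap, as in 33.7% of all tested entries, while 8.79% had all intervention libraries below the experimental ones. Iars2 (1.21-fold) and Vars2 (1.26-fold) were called at 0.0417 and 0.0448. Lars2 had the largest difference of the family, 0.53, but its SE was 0.19 and it was not called (limma adjusted p = 0.071).

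None of these calls held without certain single libraries. Without experimental replicate 1, experimental replicate 3 or intervention replicate 1, 0 of the 36 synthetase genes were called by limma. In those 3 fits 2 cytosolic genes were higher and 2 lower at an unadjusted p under 0.05, and 7 to 8 mitochondrial genes were higher.

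**Figure D4:**
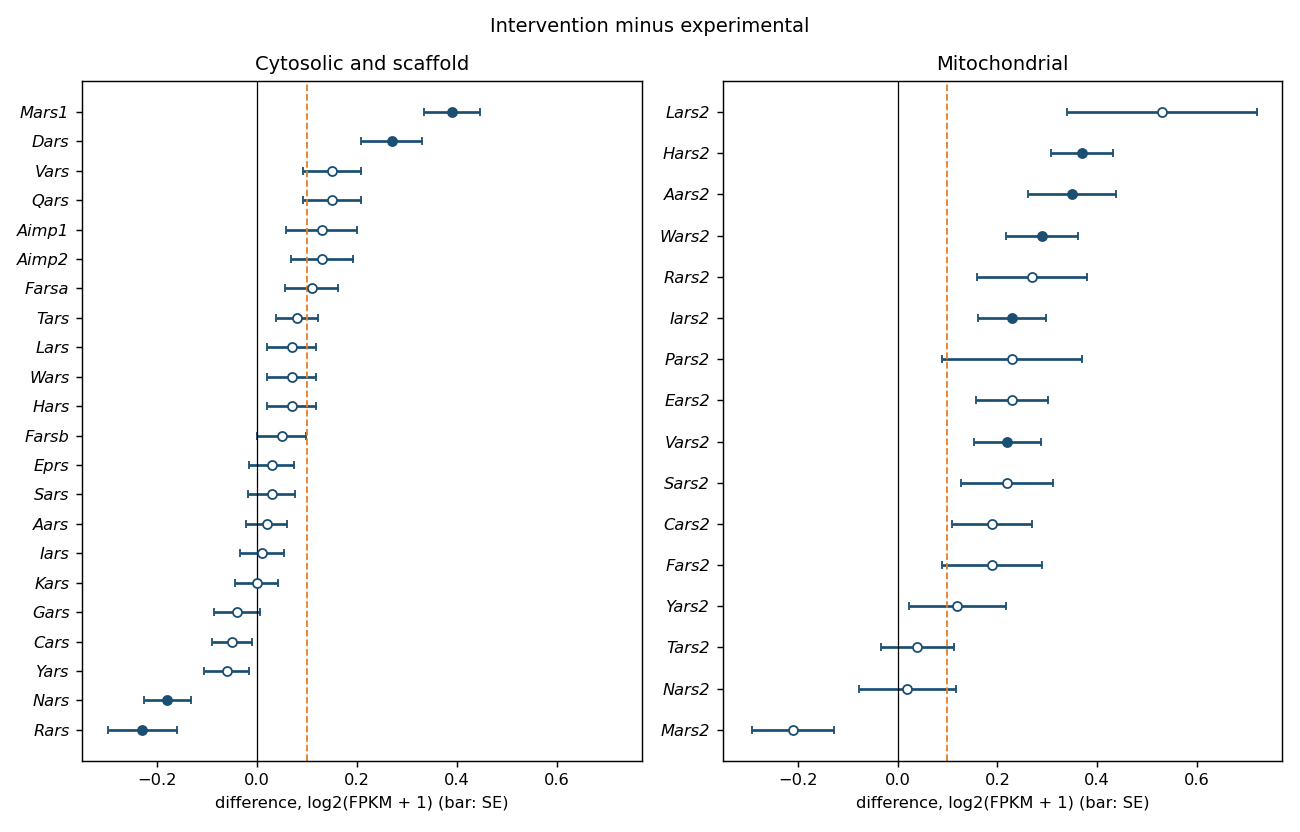
Difference between the intervention and experimental groups on the log2(FPKM + 1) scale with its SE from limma, filled where called. The dashed line is the median of all tested entries at 0.10. Mars1, at 0.39, and Dars, at 0.27, lead the cytosolic genes and Rars and Nars close them, while 15 of 16 mitochondrial genes lie above 0.

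The third comparison set intervention against control libraries and shares libraries with both others. The pattern of the first comparison was present again: 15 of 20 cytosolic genes rose and 2 fell, and 10 of 16 mitochondrial genes fell and 2 rose, where 24.1% of all entries were called higher and 41.1% lower (65.3% in either direction). All intervention libraries lay above all controls for 16 cytosolic and 3 mitochondrial genes and below them for 2 and 11, against 25.8% and 42.9% of all entries. After median-ratio scaling 3999 entries were higher and 3787 lower, with 17 cytosolic genes higher and 2 lower and 3 mitochondrial genes higher and 9 lower. Nars was 2.37-fold and Rars 2.06-fold above control (limma adjusted p = 5.4e-08 and 1.25e-06). Farsa joined the genes that rose, at 1.16-fold (limma adjusted p = 0.00785), a call lost after scaling to TPM. Mars1 and Dars remained below control, at 0.819 and 0.743 of its mean (limma adjusted p = 0.00133 and 0.000225). Pars2 was lowest relative to control at 0.473 (limma adjusted p = 0.000417). Lars2 was called higher, at 1.51-fold (limma adjusted p = 0.049), but its difference of 0.46 dropped to 0.21 without intervention replicate 1 (adjusted p = 0.125). The intervention mean lay between the control and experimental means for 13 of 16 mitochondrial genes (81.2%) and 9 of 20 cytosolic genes (45.0%), against 67.7% of all tested entries.

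Among the genes described above by their control and experimental values, the intervention libraries read as follows. Eprs was 24.1, 25.6 and 23.8 FPKM and Lars 47.9, 48.8 and 45.1, both overlapping or near the experimental values. Yars was 55.5, 56.6 and 53.5 FPKM and Gars 155, 161 and 162. All 4 stayed far above every control library. Vars was 45.7, 43.7 and 44.6 FPKM and Qars 19.7, 19.0 and 19.0, within or next to the control values, and neither was called against control (limma adjusted p = 0.603 and 0.927).

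Of the mitochondrial genes, Pars2 was 2.85, 1.53 and 1.82 FPKM and Iars2 7.81, 6.52 and 6.55 in intervention libraries, all below their controls. Vars2 was 2.17, 2.18 and 2.46 FPKM and Sars2 2.71, 2.13 and 2.87, also below every control library. Intervention replicate 1 was the highest of the 3 for Pars2, Iars2 and Lars2. Mars2 was 2.50, 2.51 and 2.40 FPKM, inside the control range, and Ears2 was 1.38 in all 3 libraries, above the controls but not called (limma adjusted p = 0.0676).

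Other genes that serve tRNA charging were read from a list set apart from the 38. Of 13 synthetases and partners, 2 rose and 10 fell in experimental libraries, with a median of -0.49, beside the same 23.5% and 50.5% of all entries. Tarsl2, a second threonine enzyme of the cytosol, fell from 4.47 ± 0.23 to 1.97 ± 0.0651 FPKM, while Tars rose. Gatb, Gatc and Qrsl1, named after their values were seen, are the subunits of the amidotransferase that makes glutamine tRNA in mitochondria; all fell, and Gatc went from 20.2 ± 0.935 to 13.4 ± 0.739 FPKM (limma adjusted p = 2.55e-05). Dtd2, which removes wrongly attached amino acids from tRNA, fell from 2.25 ± 0.311 to 0.903 ± 0.0702 FPKM (limma adjusted p = 2.73e-05).

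In the list of uncharged tRNA sensing and ATF4 targets 11 of 15 tested genes rose and 1 fell in experimental libraries, with a median of 0.74, beside 23.5% higher and 50.5% lower of all entries. Atf4 itself rose from 215 ± 11.5 to 298 ± 3.71 FPKM and Asns, asparagine synthetase and a classical ATF4 target, from 74.9 ± 3.27 to 133 ± 1.41 (limma adjusted p = 1.06e-05 and 1.7e-07). Ddit3, the stress factor CHOP, had the largest difference of the list at 1.94. Eif2ak4, the kinase GCN2 that senses uncharged tRNA, fell from 6.44 ± 0.146 to 4.48 ± 0.227 FPKM (limma adjusted p = 4.61e-05). In intervention against experimental libraries 4 of the 15 genes fell and 11 were not called, where 3.6% of all entries were called lower and 15.9% higher. Sesn2, a stress-induced inhibitor of mTORC1, fell from 38.6 ± 3.82 to 24.5 ± 3.88 FPKM (limma adjusted p = 0.0153) and Ddit3 from 98.2 ± 4.42 to 82.1 ± 5.41 (limma adjusted p = 0.0335). Ddit4 and Chac1, named after their values were seen, fell to 0.73 and 0.858 of the experimental mean (limma adjusted p = 0.0221 and 0.0366). Atf4 and Asns were not called (limma adjusted p = 0.453 and 0.522). Without experimental replicate 1, or without experimental replicate 3, 0 of all tested entries were called lower. The calls of Sesn2, Ddit3, Ddit4 and Chac1 were thus lost in both fits.

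**Figure D5:**
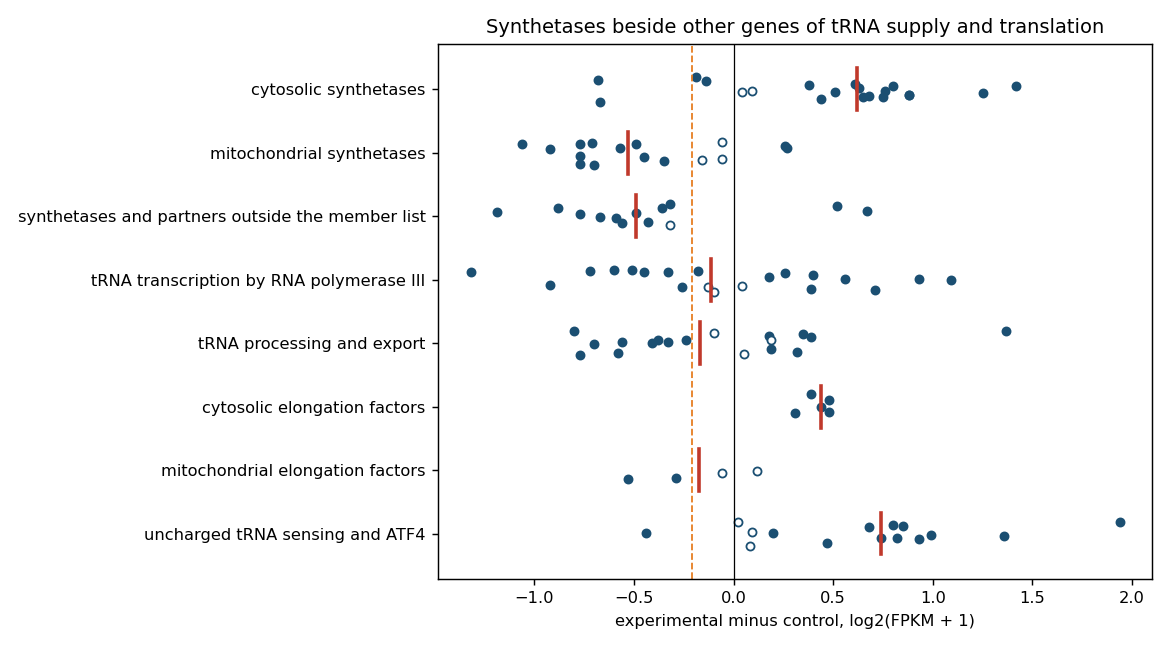
Difference between the experimental and control groups on the log2(FPKM + 1) scale for the genes of 8 lists, one point per tested gene, filled where called, with the list median as a red bar and the median of all tested entries as a dashed line. The median is 0.62 for cytosolic synthetases and 0.74 for the ATF4 list, and -0.53 for mitochondrial synthetases.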

How the data were processed

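Messenger RNA was sequenced from 9 HT22 libraries. Per the file headers, the authors deposited FPKM, 1 value per entry and library with 2 decimals. The submitters' processing notes name mm10. Aligner, counter, annotation and strand use: not given in the sources used here, so genes with exons on another gene (15 of the 38) are uncertain. Whole reads could not be recovered: 16.1% of 8039 values of genes under 200 nt were below 1 read of a library of 200 M reads. The planned count test was not run, and depth is unknown.

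Groups came from the sample titles. FPKM was tested as log2(FPKM + 1) with limma 3.58.1 in R 4.3.3 (trend, all 9 libraries, no covariate, Benjamini-Hochberg over 11974 entries, 2-sided). Fold changes are ratios of mean FPKM. A repeated symbol stayed with its highest entry. Named genes were the 6 largest and 4 smallest cytosolic and 4 and 4 mitochondrial differences, the scaffolds, the 6 strongest calls of the second comparison, Atf4, Ddit3, Asns and Eif2ak4, and the up to 3 largest called differences of a list; genes named outside this rule are marked as such, and 2 genes of these lists are not reported here. Members, lists and rules were chosen with earlier results of these data known. Positions came from GENCODE M21. Alternatives changed the pseudocount, filter, scaling, block, trend, groups or library. The fit was also run on simulated data with independent noise and far fewer changed entries than here. That run cannot speak for the calls above.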

Additional observations from a re-analysis of the deposited data

How the results depend on the processing

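In experimental against control and intervention against control libraries, the number of cytosolic genes called higher stayed within 1.5 times its main value in each setting tried, and was 14 and 15 in every fit without 1 library. Mitochondrial genes called lower stayed at 11 and at 9 to 10 without 1 library. After quantile normalization 8 and 7 were called lower, and the mitochondrial medians went from -0.53 to -0.23 and from -0.32 to -0.15. In intervention against control the calls of Cars2, Fars2 and Tars2 were lost there. With a mean FPKM of at least 5, which leaves fewer genes to test, 2 of 3 tested mitochondrial genes were called lower in both comparisons. The smaller counts moved. In experimental against control, cytosolic genes called lower were 2 after median-ratio scaling and 2 to 4 without 1 library (2 without experimental replicate 1). Mitochondrial genes called higher were 1 with no filter, 0 with a mean of at least 5, 1 after scaling to TPM and 0 to 2 without 1 library (0 by limma without experimental replicate 3, and 0 at an unadjusted p under 0.05). In intervention against control, mitochondrial genes called higher were 1 with no filter, with a mean of at least 5, after scaling to TPM, with the replicate block and with only the 2 groups compared, 4 after quantile normalization, and 1 to 2 without 1 library.

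In intervention against experimental, cytosolic genes called higher were 1 with no filter, median-ratio scaling or quantile normalization, and 0 to 3 without 1 library. Those called lower were 0 by limma with no filter or the replicate block (2 at an unadjusted p under 0.05 in both), 1 with quantile normalization, no trend or only the 2 groups compared, and 0 to 2 without 1 library. Mitochondrial genes called higher were 1 with no filter, median-ratio scaling, quantile normalization or the replicate block, 2 with a mean of at least 5, 3 after scaling to TPM or with only the 2 groups compared, and 0 to 5 without 1 library, and 1 was called lower after quantile normalization. Over all entries this comparison had 2337 calls, 1268 with the replicate block, 358 with no filter, 1437 and 1038 after median-ratio scaling and quantile normalization, and 1, 4, 6 and 950 without experimental replicates 1 and 3 and intervention replicates 1 and 3. The cytosolic median reversed to -0.06 after median-ratio scaling. Median-ratio scaling also moved the split over all entries, to 4321 higher and 4399 lower in the first comparison, 645 and 792 in the second, and 3999 and 3787 in the third.

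Among the genes, differences of experimental against control changed sign for Aimp1 (0.17 after median-ratio scaling, 0.20 after quantile normalization, -0.13 to 0.02 without 1 library, above 0 without control replicate 2), Ears2 (0.07 and 0.14 after those scalings), Lars2 (0.14 and 0.22, and -0.13 to 0.05 without 1 library, above 0 without experimental replicate 1), Nars2 (0.06 after quantile normalization), Hars (-0.03 after scaling to TPM, -0.00 to 0.06 without 1 library, lowest without experimental replicate 3), and Qars and Vars (0.09 and 0.05 after median-ratio scaling). The cause was not tested.

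Replicate numbers are shared between groups, but the same-numbered libraries deviated from their group means with correlations of -0.182 to 0.11. In 6 of 18 combinations of a library with another group the best match had its own number. No pairing by number was seen, but with 3 libraries per group a weak pairing could go unseen. Depth is unknown, so the precision of genes near 1 FPKM, such as Ears2 and Nars2, rests on the spread of 3 libraries alone.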

Other observations

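Outside the synthetases, genes that make and handle tRNA did not move as 1 block in experimental against control libraries. Of 20 genes for RNA polymerase III, which transcribes tRNA genes, and its factors, 8 rose and 9 fell, against 23.5% and 50.5% of all entries. Among 18 tested genes of tRNA processing and export 6 rose and 9 fell. Xpot, the exporter of tRNA from the nucleus, rose from 27.1 ± 1.34 to 71.8 ± 0.576 FPKM (limma adjusted p = 2.67e-08), an increase like that of Nars. Gtf3c4, a subunit of the factor that binds tRNA gene promoters, rose from 10.5 ± 0.503 to 23.4 ± 0.955 FPKM, while Gtf3c5, another subunit named after its values were seen, fell from 16.5 ± 0.971 to 8.23 ± 0.922 (limma adjusted p = 2.08e-07 and 4.55e-06). Polr3gl fell from 11.7 ± 0.826 to 4.12 ± 0.737 FPKM and its paralog Polr3g, also named after its values were seen and the alternative subunit at the same place in the polymerase, rose from 3.08 ± 0.221 to 4.35 ± 0.0751 (limma adjusted p = 6.05e-06 and 0.000147).

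Genes listed as elongation factors of translation were also counted by compartment. All 5 cytosolic factors listed rose, beside 23.5% higher and 50.5% lower of all entries, with Eef1d going from 30.3 ± 1.33 to 42.7 ± 0.963 FPKM (limma adjusted p = 9.32e-06). Of 4 mitochondrial factors 2 fell, Tsfm from 8.44 ± 0.337 to 5.54 ± 0.389 FPKM and Gfm2 from 1.68 ± 0.155 to 1.19 ± 0.09 (limma adjusted p = 6.42e-05 and 0.0064), and Tufm and Gfm1 were not called. The difference between these sets was not tested.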
